A study of Mus musculus with 48 samples.

Results

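The change in RNA levels between 12 h and 24 h of muscle differentiation was measured in C2C12 cells, an established mouse myoblast line that turns into multinucleate myotubes in low serum. The arrays were chosen by their labelled time: 3 arrays of cells after 24 h of differentiation and 3 of cells after 12 h, which makes 6 of the 48 arrays of the series. Cells of both times had grown in DMEM with 20% fetal bovine serum (FBS), were moved at 0 h to DMEM with 2% horse serum, and received no cycloheximide. For comparison, the step was set beside the first 12 h of differentiation and the following day, from 24 h to 48 h. It was also set beside the last day in growth medium, from -24 h to 0 h. Each of these times had 3 arrays. The step spans 12 h and each of the days 24 h, and no comparison was scaled to the length of the interval. Plates were separate for each time, the 3 replicates came from successive passages of 1 cell line, and each array read the RNA of a whole plate, so that a larger share of differentiated cells and more RNA per cell cannot be told apart.

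In textbook myogenesis, the transcription factors Myod1 and Myf5 mark the committed myoblast, and Myog follows as the cell withdraws from the cell cycle. Myog and the Mef2 factors then act on the genes of the contractile apparatus, and the cells fuse through the membrane proteins Mymk and Mymx. The sarcomere is built of thick myosin filaments joined at the M-band and thin actin filaments anchored at the Z-disc. Calcium released from the sarcoplasmic reticulum couples the electrical signal of the membrane to contraction, and creatine kinase, glycogen and myoglobin serve the energy demand.

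The values are log2 probe set intensities from RMA, a method that corrects background, normalizes arrays to each other and summarises the probes of a set; each of the 18193 genes is represented by 1 probe set. Levels were not compared between genes. Array medians ran from 4.02 to 4.12 at 12 h and from 4.08 to 4.09 at 24 h. Among the genes below, Casq1 (mean 3.84), Myh8 (3.73), Cacna1s (4.14) and Fn3k (4.20) were near these values at 12 h. Omd was near them at 24 h (4.48), and Tnfrsf10b at both times (3.99 at 12 h and 4.57 at 24 h). The size of a change is less certain for such low values. Arrays of the same time correlated at 0.9938 to 0.9950 for 24 h and at 0.9917 to 0.9949 for 12 h, and arrays of different times at 0.9876 to 0.9919. Same-numbered arrays of 24 h and 12 h deviated together from their group means (r = 0.272, 0.292 and 0.275 for replicates 1, 2 and 3), so the numbers were taken to pair the plates. The main fit to all arrays, the source of the calls and SE below, did not use this pairing. A fit with the replicate number as a block did, and its calls are given beside those of the main fit. Among the 199 genes called higher at 24 h, replicate 1 was the highest of the 24 h arrays for 115 and the highest of the 12 h arrays for 151, and replicate 2 was the lowest of the 12 h arrays for 124. Values below are listed in the order of replicates 1, 2 and 3, and each difference is 24 h minus 12 h on the log2 scale with its standard error (SE).

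No marker of another cell type was called between the times with limma. Myod1 stood at 10.30, 10.30 and 9.69 at 24 h, against 10.05, 9.87 and 9.45 at 12 h. Of 7 markers of skeletal myoblasts 0 were called in either direction with limma, 3 had an unadjusted p under 0.05, all higher, and 3 were called with the replicate number as a block. Among all genes an unadjusted p under 0.05 was found for 6.73% higher and 3.65% lower, which is the background of each such count below. Of 7 adipocyte, 7 bone and cartilage, 7 smooth muscle, 8 leukocyte and 7 endothelial markers measured, 0 were called in either direction with limma, and unadjusted p values under 0.05 were found for 1 adipocyte marker, higher, and for 1 smooth muscle marker in each direction. The replicate block called 1 of these markers, the smooth muscle gene Smtn, higher by 0.60. A mean of at least 6 at 12 h or 24 h was reached by 2 adipocyte, 1 bone and cartilage and 4 smooth muscle markers. It was reached by 1 leukocyte and 0 endothelial markers, against 7 of the 7 myoblast markers. Markers with low values at both times could hardly be called, so their counts of 0 do not test for other cell types.

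In the fit to all arrays more genes rose than fell between 12 h and 24 h, and contractile and metabolic muscle genes made up many of the largest rises. limma called 243 of 18193 genes at an adjusted p under 0.05 (1.34%), of which 199 rose (1.09%) and 44 fell (0.242%). A change of at least 2-fold was measured for 83 of the risen genes (0.456% of all genes) and 9 of the fallen (0.0495%). The 24 h arrays lay above all 12 h arrays for 193 of the 199 risen genes and below them for 44 of the 44 fallen, against 9.66% and 7.98% of all genes, and 242 of the 243 called genes moved the same way within each of the 3 replicate pairs. The genes were called on these same arrays, so these counts follow in large part from the selection and are not separate support. The share of all genes that moved the same way in each pair was not taken. The median difference of all genes was 0.02.

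With the replicate number as a block 657 genes were called (3.61%), 510 higher (2.8%) and 147 lower (0.808%), and they held all 243. A fit to the 6 arrays alone called 435 genes and split them 213 higher to 222 lower, so 49.0% were higher, against 81.9% in the fit to all arrays, and 174 of the 243 were among them. The block on these 6 arrays, added after seeing the data, called 879 and split them 422 higher to 457 lower (48.0% higher). Leaving out 24 h replicate 1 gave 112 calls. Leaving out 12 h replicate 2 gave 94, and leaving out 12 h replicate 3 gave 146.

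**Figure D1:**
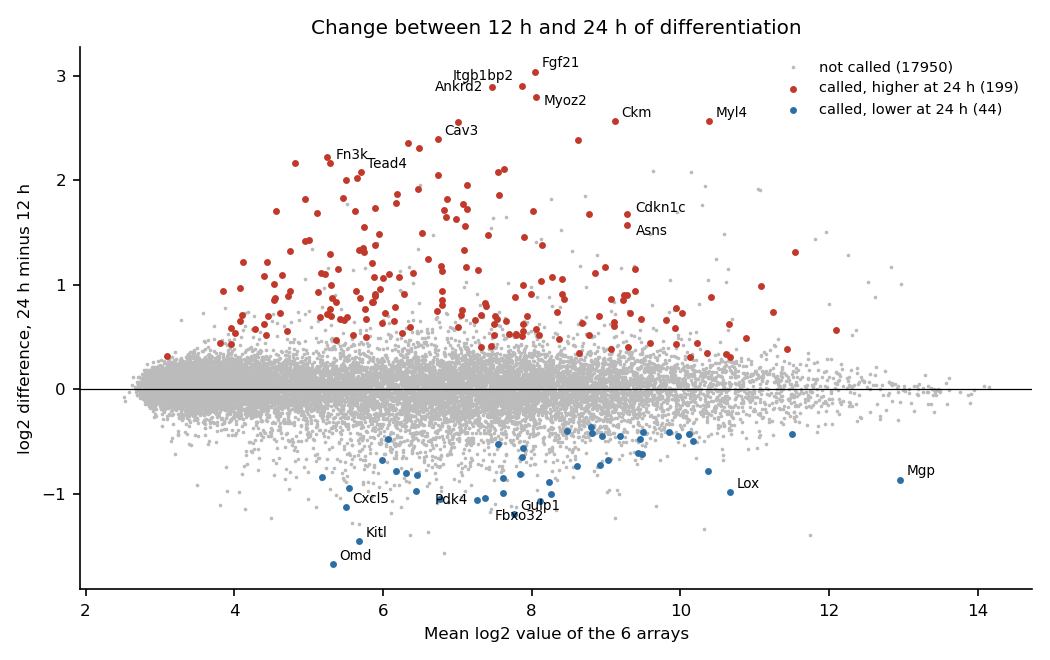
Each point is a gene, with the mean log2 value of the 6 arrays on the horizontal axis and the log2 difference, 24 h minus 12 h, on the vertical axis; red points are the 199 genes called higher, blue points the 44 called lower and grey points the rest. The rises reach 3.04 and the falls -1.68, and the red points outnumber the blue.

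Genes of the thick filament and M-band had higher mean values at 24 h. All 21 measured members had a positive difference, 6 rose and 0 fell (median of the list 1.22, against 0.02 for all genes), and the block called 11. Myl4, an essential myosin light chain of embryonic muscle, stood at 11.90, 11.53 and 11.57 at 24 h, against 10.00, 8.15 and 9.15 at 12 h. The times did not overlap, and the rise was among the largest in the data (2.57 ± 0.59 SE, adjusted p 0.0127). Unc45b, a chaperone that folds the myosin motor, was at 8.59, 8.12 and 8.13 at 24 h, against 6.90, 4.73 and 5.55 at 12 h (2.55 ± 0.44 SE, adjusted p 4.59e-04). Myh8, the perinatal myosin heavy chain, was at 7.05, 5.10 and 5.53 at 24 h, against 4.33, 3.48 and 3.40 at 12 h, and replicate 1 was the highest at both times (2.16 ± 0.34 SE, adjusted p 1.30e-04). Myom1, the M-band protein myomesin, rose by 2.02 ± 0.31 SE (adjusted p 7.93e-05). The embryonic myosin heavy chain Myh3 differed by 2.07 ± 0.80 SE and was not called (adjusted p 0.294), while the replicate block called it (adjusted p 0.0026). The 6 calls became 3 without 24 h replicate 1 and 4 without 12 h replicate 2 or 12 h replicate 3; Myl4 was lost without any of these arrays (adjusted p 0.0514 to 0.199).

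Genes of the thin filament and Z-disc also had higher mean values at 24 h. All 29 measured members had a positive difference, 10 rose and 0 fell, with a list median of 1.24, and the block called 21. Myoz2, a Z-disc protein that binds calcineurin, stood at 9.59, 9.20 and 9.56 at 24 h, against 7.24, 5.71 and 7.02 at 12 h (2.80 ± 0.38 SE, adjusted p 8.98e-06). The lowest 24 h array of Myoz2 was well above the highest 12 h array. Actn2, the alpha-actinin that crosslinks actin at the Z-disc, was at 8.30, 6.94 and 7.29 at 24 h, against 6.23, 4.54 and 4.69 at 12 h (2.36 ± 0.36 SE, adjusted p 8.03e-05). Csrp3, a LIM protein of the Z-disc, was at 8.73, 8.45 and 8.85 at 24 h, against 6.93, 5.84 and 6.94 at 12 h (2.11 ± 0.40 SE, adjusted p 0.0017), and Lmod2, which starts and lengthens thin filaments, rose by 1.86 ± 0.39 SE (adjusted p 0.00433). The skeletal actin gene Acta1 differed by 1.17 (adjusted p 0.51) and the cardiac actin gene Actc1 by 0.88 (adjusted p 0.73), and neither was called, also with the block (adjusted p 0.0624 for Acta1 and 0.352 for Actc1). In the fit to the 6 arrays alone Acta1 was called (adjusted p 0.0174) and Actc1 was not (adjusted p 0.0617), and with the block on these 6 arrays, a fit added after seeing the data, both were called (adjusted p 0.00226 for Acta1 and 0.0131 for Actc1). Both actin genes were already at high values at 12 h, with Acta1 at 13.42 ± 0.16 at 24 h and 12.26 ± 0.49 at 12 h. The 10 calls became 3 without 24 h replicate 1 or without 12 h replicate 2, and 6 without 12 h replicate 3. Csrp3 was lost without 12 h replicate 2 (adjusted p 0.0516), and Lmod2 without 24 h replicate 1 or 12 h replicate 2 (adjusted p 0.0533 to 0.0937).

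Among muscle genes outside the lists, Itgb1bp2 and Ankrd2 showed the largest rises. Itgb1bp2, known as melusin, binds integrin tails in striated muscle and was at 9.83, 9.11 and 9.04 at 24 h, against 7.62, 5.51 and 6.15 at 12 h (2.90 ± 0.50 SE, adjusted p 4.41e-04). Ankrd2, an ankyrin repeat protein that responds to stretch in muscle, was at 9.04, 8.87 and 8.81 at 24 h, against 6.42, 5.32 and 6.32 at 12 h (2.89 ± 0.30 SE, adjusted p 6.33e-08). For both genes every 24 h array lay above every 12 h array. Dhrs7c, a dehydrogenase of the sarcoplasmic reticulum, was at 8.39, 7.12 and 7.39 at 24 h, against 6.53, 4.31 and 5.13 at 12 h (2.31 ± 0.36 SE, adjusted p 1.24e-04). Fn3k, which removes sugar adducts from proteins by phosphorylating them, had the smallest adjusted p of the named genes, with 6.57, 6.16 and 6.37 at 24 h, against 4.35, 3.93 and 4.33 at 12 h (2.17 ± 0.16 SE, adjusted p 3.53e-11).

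The calls among genes of excitation-contraction coupling were all upward. Of 19 measured members 5 rose and 0 fell, with a list median of 0.83, and the block called 12. Cacna1s, the pore of the voltage sensor in the T-tubule, was at 6.91, 6.02 and 6.16 at 24 h, against 4.63, 3.80 and 3.99 at 12 h (2.22 ± 0.27 SE, adjusted p 1.30e-06). Its partner subunit Cacnb1 rose by 1.48 ± 0.34 SE (adjusted p 0.0129) on a probe set marked for possible cross-hybridisation; without such probe sets the call was lost (adjusted p 0.509). Casq1, the calcium store protein of fast muscle, was at 5.84, 4.57 and 4.73 at 24 h, against 3.83, 3.62 and 4.06 at 12 h (1.21 ± 0.21 SE, adjusted p 4.41e-04), with the largest gap in replicate 1, and a fit to the 6 arrays alone gave an adjusted p of 0.0534. Hrc, a calcium-binding protein of the reticulum, rose by 1.33 ± 0.30 SE (adjusted p 0.0112). The 5 calls became 2 without 24 h replicate 1, 12 h replicate 2 or 12 h replicate 3; each of these arrays decided Hrc (adjusted p 0.0662 to 0.124) and Cacnb1 (adjusted p 0.107 to 0.131).

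At the membrane, Cav3 gave the clearest rise. Caveolin 3 is the caveolin of muscle, and its gene was at 8.59, 7.71 and 7.51 at 24 h, against 6.15, 5.03 and 5.44 at 12 h (2.39 ± 0.26 SE, adjusted p 2.03e-07). Of 19 adhesion and fusion genes 2 rose, Cav3 and Dysf, and 1 fell, with a list median of 0.13; the block called 4 higher and 1 lower. Dysf, which serves membrane repair, rose by 0.94 ± 0.21 SE (adjusted p 0.0111), and Cd9, a tetraspanin of the cell surface, fell by 0.43 ± 0.11 SE (adjusted p 0.0496). Of 12 genes of the neuromuscular junction 1 rose, Chrng, the fetal subunit of the acetylcholine receptor, which was at 9.79, 9.56 and 9.47 at 24 h, against 8.46, 7.61 and 7.72 at 12 h (1.67 ± 0.39 SE, adjusted p 0.013), and the block called 3. Dag1, which codes for dystroglycan, was the 1 member of 10 of its complex that rose (0.62 ± 0.12 SE, adjusted p 0.00321). Without 24 h replicate 1, 12 h replicate 2 or 12 h replicate 3, Dysf (adjusted p 0.0614 to 0.174) and Chrng (adjusted p 0.0855 to 0.134) were lost, and Cd9 was lost without any 1 of the 6 arrays (adjusted p 0.0545 to 0.369).

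In the fit to all arrays without the block, muscle energy metabolism had the highest share of called members of the lists. Of 19 measured genes 12 rose and 0 fell (63.2% of the list, against 1.09% of all genes), 8 of them at least 2-fold, and the list median was 0.86; the block also called 12, as many as of the 19 coupling genes and a lower share than the 21 of 29 of the thin filament list. Ckm, the muscle creatine kinase, was at 10.86, 10.56 and 9.80 at 24 h, against 8.70, 7.24 and 7.60 at 12 h (2.56 ± 0.55 SE, adjusted p 0.00676). Mb, the oxygen-binding myoglobin, was at 10.17, 9.61 and 9.68 at 24 h, against 8.17, 6.71 and 7.43 at 12 h (2.38 ± 0.50 SE, adjusted p 0.00467). In both, replicate 1 was the highest array of its time. Pgam2, the muscle phosphoglycerate mutase of glycolysis, was at 8.61, 8.04 and 7.69 at 24 h, against 6.92, 5.57 and 5.99 at 12 h (1.95 ± 0.31 SE, adjusted p 1.61e-04). Cox8b, a muscle isoform of a cytochrome oxidase subunit, was at 7.50, 7.34 and 7.45 at 24 h, against 5.69, 5.24 and 5.60 at 12 h, with little spread at either time (1.92 ± 0.24 SE, adjusted p 2.56e-06). Adssl1, the muscle enzyme of the purine nucleotide cycle, rose by 1.48 ± 0.21 SE (adjusted p 2.53e-05). The 12 calls became 6 without 24 h replicate 1 or 12 h replicate 2, and Ckm (adjusted p 0.0693 to 0.0942) and Mb (adjusted p 0.0533 to 0.0934) were lost without either array.

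The general respiratory chain held no called gene. Of 20 genes of the respiratory chain and mitochondrial control 0 were called with limma, by the block too; 4 had an unadjusted p under 0.05, all higher, the list median was 0.14, and the differences ran from -0.13 to 0.24. Of 18 genes of glycolysis and hypoxia 1 rose, Egln3, a prolyl hydroxylase of the hypoxia pathway, which was at 8.82, 8.74 and 8.87 at 24 h, against 7.84, 7.65 and 7.74 at 12 h (1.07 ± 0.14 SE, adjusted p 7.78e-06); the block called 3.

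**Figure D2:**
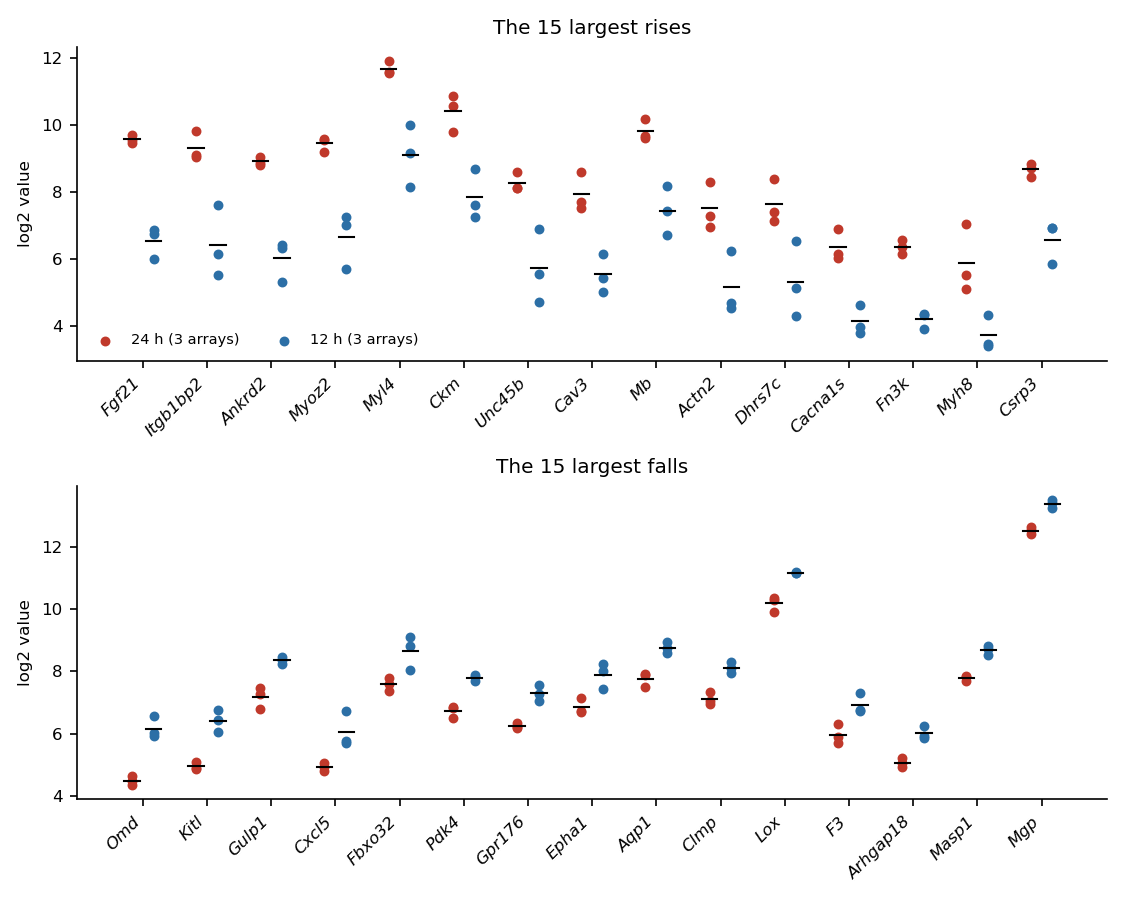
Log2 values of each array for the 15 largest rises (top) and the 15 largest falls (bottom) among called genes whose times do not overlap; red points are the 3 arrays at 24 h, blue points the 3 at 12 h, and bars their means. Muscle genes fill most of the top panel and spread more at 12 h than at 24 h for Myoz2, Ankrd2 and Unc45b, while Lox and Mgp in the bottom panel lie in narrow groups.

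Most of the myogenic transcription factors were not called. Of 14 measured, 1 rose with limma and 0 fell, and the list median was 0.12. Myog was at 12.95, 12.62 and 12.39 at 24 h, against 12.50, 11.87 and 11.88 at 12 h, and the values of the times overlapped, although the 24 h array was the higher in each of the 3 replicate pairs (0.57 ± 0.64 SE, adjusted p 0.835). The block did not call Myog (adjusted p 0.594), while the block on the 6 arrays did (adjusted p 0.0175). Myf5 differed by -0.53 (adjusted p 0.66) and Mef2c by 1.13 (adjusted p 0.323; replicate block 0.0604), and the block on the 6 arrays called both (adjusted p 0.0333 for Myf5 and 0.00568 for Mef2c). The block called 2 of the 14, Mef2d and Hes6, a bHLH factor (0.57, adjusted p 0.00834). The member that rose was Mef2d, a partner of Myog at muscle genes, at 8.32, 8.40 and 8.35 at 24 h, against 7.94, 7.67 and 7.91 at 12 h (0.52 ± 0.10 SE, adjusted p 0.00273); it was lost without 12 h replicate 2 (adjusted p 0.0677). Tead4, a TEA domain factor that binds the MCAT element of muscle genes, made a much larger step, to 7.06, 6.62 and 6.55 at 24 h, against 5.17, 4.50 and 4.31 at 12 h (2.08 ± 0.32 SE, adjusted p 9.69e-05), and no array of 12 h reached a 24 h array. The other probe set of Tead4 gave a smaller difference, 0.94. The fusogens Mymk and Mymx differed by 1.49 (adjusted p 0.479) and 1.04 (adjusted p 0.444) and were not called; the block called Mymk (adjusted p 0.0427) but not Mymx (adjusted p 0.0756). In the fit to the 6 arrays alone both were called (adjusted p 0.0432 for Mymk and 0.00421 for Mymx), as they were with the block on these arrays (adjusted p 0.00282 for Mymk and 0.00188 for Mymx).

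Repressors of myogenesis were not called. Of 22 members of the Id, Notch and related list 0 were called with limma in either direction, 1 had an unadjusted p under 0.05 upward and 2 downward, and the block called 1. Id1 was at 8.87, 8.70 and 8.24 at 24 h, against 8.64, 7.77 and 7.83 at 12 h, Id2 differed by 0.30 (adjusted p 0.815), and Id3 by 0.23 (adjusted p 0.861). For these inhibitors of Myod1 the arrays of both times overlapped, and replicate 1 was the highest at each time.

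**Figure D3:**
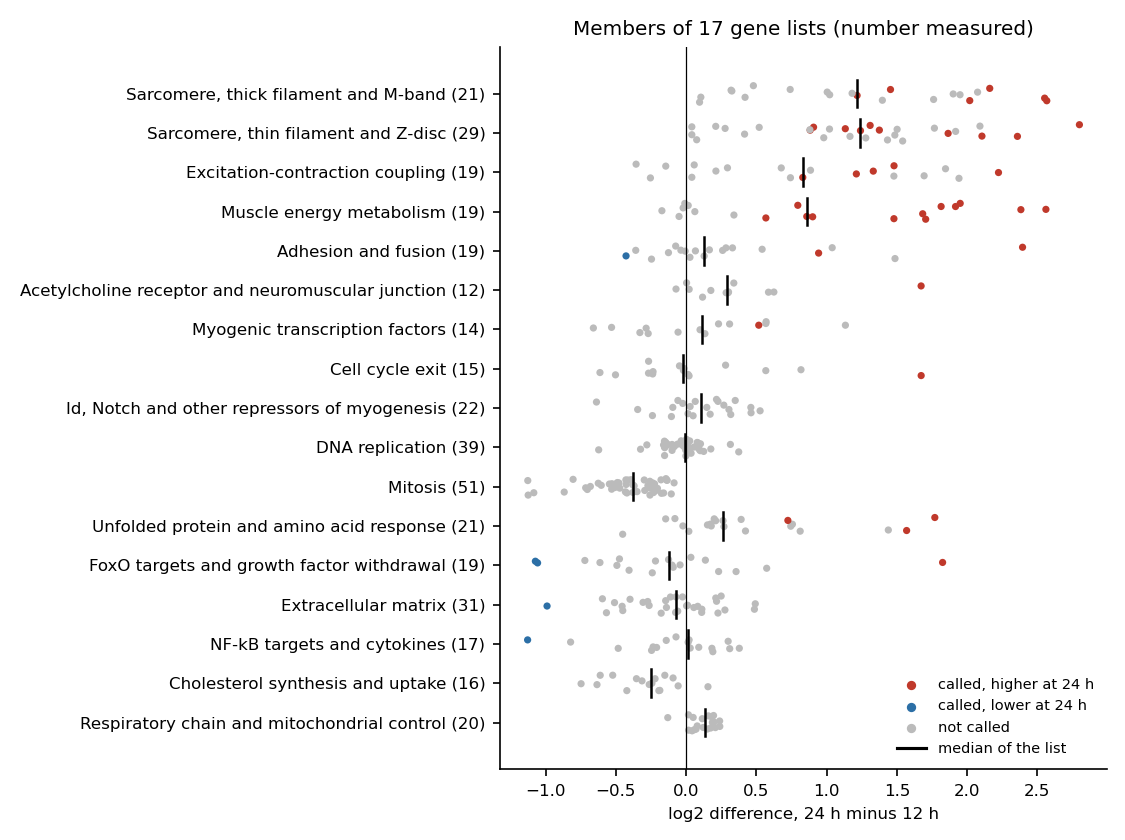
Each point is a member of a gene list, placed by its log2 difference, 24 h minus 12 h; red points were called higher, blue points called lower, grey points not called, and the black tick is the list's median. The 2 sarcomere lists lie wholly above 0, with medians of 1.22 and 1.24, and the 51 mitosis genes lie wholly below 0 without a called member.

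The cell cycle lists held 1 called gene. Cdkn1c, an inhibitor of cyclin-dependent kinases, was at 10.23, 10.20 and 9.92 at 24 h, against 8.90, 8.09 and 8.33 at 12 h (1.67 ± 0.30 SE, adjusted p 8.69e-04). It was the 1 riser among 15 genes of cell cycle exit, and the block called 3 higher and 1 lower. Cdkn1a, the inhibitor that Myod1 and p53 induce, was at 12.55, 12.48 and 12.21 at 24 h, against 12.10, 11.32 and 11.37 at 12 h (0.82 ± 0.36 SE, adjusted p 0.388), and the block called it (adjusted p 0.00302). Of 39 DNA replication genes 0 were called by limma or by the block, and 0 had an unadjusted p under 0.05; the list median was -0.01 and Mcm5, a subunit of the replicative helicase, differed by 0.03 (adjusted p 0.989). The 51 mitosis genes all had negative differences, between -1.13 and -0.09 with a median of -0.38, and 0 were called by limma or by the block, although 9 had an unadjusted p under 0.05 (3.65% of all genes were lower at this level). A fit to the 6 arrays alone called 7 of the 51 lower, and the block on these 6 arrays called 13 lower. Cdk1, the mitotic kinase, was at 9.71, 9.73 and 9.72 at 24 h, against 10.05, 9.90 and 9.92 at 12 h, which do not overlap, with a difference of -0.24 (adjusted p 0.799). Ccnd1, the G1 cyclin, differed by -0.39 (adjusted p 0.459), and Myc by -0.08 (adjusted p 0.953).

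Fgf21 made the largest step of any called gene. Fgf21 codes for a secreted hormone of metabolic stress that is induced by the amino acid response factor Atf4, and was at 9.55, 9.70 and 9.45 at 24 h, against 6.74, 5.99 and 6.86 at 12 h (3.04 ± 0.72 SE, adjusted p 0.0163). The call was lost without 12 h replicate 2 or any 1 of the 24 h arrays (adjusted p 0.0527 to 0.148); the block kept it (adjusted p 1.40e-04). Fst, the secreted inhibitor of myostatin and activins, was at 8.97, 8.22 and 8.29 at 24 h, against 7.54, 5.94 and 6.42 at 12 h (1.86 ± 0.40 SE, adjusted p 0.00717), and was lost without 24 h replicate 1, 12 h replicate 2 or 12 h replicate 3 (adjusted p 0.0543 to 0.144). These were the 2 risen members of 21 secreted growth factors and receptors, of which 0 fell and the block called 3 higher; without 24 h replicate 1 or 12 h replicate 2 the count was 0. Igf2, the growth factor of differentiating myoblasts, differed by 1.24 and varied between passages, with 11.95, 10.85 and 10.50 at 24 h, against 11.33, 9.18 and 9.07 at 12 h (adjusted p 0.71), and the block on the 6 arrays called it (adjusted p 0.00564).

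Genes of the amino acid response gave further rises. Of the 21 measured members of the list for protein folding stress and amino acid shortage 3 rose and 0 fell, 8 had an unadjusted p under 0.05 upward (6.73% of all genes) and 1 downward (3.65%), and the block called 7; the list median was 0.26. Asns, which makes asparagine, was at 10.11, 10.10 and 10.01 at 24 h, against 8.77, 8.25 and 8.49 at 12 h, in narrow groups that do not overlap (1.57 ± 0.27 SE, adjusted p 4.96e-04). Chac1, which degrades glutathione, was at 8.18, 8.03 and 7.69 at 24 h, against 6.61, 5.81 and 6.17 at 12 h (1.77 ± 0.45 SE, adjusted p 0.029), and Herpud1, of the degradation pathway in the endoplasmic reticulum, rose by 0.72 ± 0.14 SE (adjusted p 0.00188). Chac1 was lost without any of 12 h replicates 2 and 3 or of the 24 h arrays (adjusted p 0.054 to 0.232), and the list kept 2 calls in each of these cases. Outside the list, and chosen after their values were seen, the aminoacyl-tRNA synthetases Gars (0.59 ± 0.14 SE, adjusted p 0.0232), Iars (0.70 ± 0.17 SE, adjusted p 0.0173) and Mars1 (0.67 ± 0.14 SE, adjusted p 0.00552) rose, as did Mthfd2, a folate enzyme of mitochondria (1.37 ± 0.26 SE, adjusted p 0.00134). The other synthetases were not counted, so these genes do not describe the family.

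Heat shock, splicing and p53 target lists held few calls. Of 15 heat shock genes 2 rose, the muscle chaperones Hspb3 (1.07 ± 0.21 SE, adjusted p 0.00321) and Hspb7 (0.84 ± 0.21 SE, adjusted p 0.0338), and the block called 5. Hspb3 was lost without 12 h replicate 2 (adjusted p 0.0861), and Hspb7 without 24 h replicate 1 or 2 or 12 h replicate 2 or 3 (adjusted p 0.0574 to 0.51); the list's count ran from 0 without 12 h replicate 2 to 4 without 12 h replicate 1. Of 13 splicing regulators 1 rose, Rbm38 (1.06 ± 0.23 SE, adjusted p 0.00743), which was lost without 24 h replicate 1 or 12 h replicate 2 (adjusted p 0.0564 to 0.0979). Of 14 p53 targets 1 rose, the death receptor gene Tnfrsf10b (0.58 ± 0.14 SE, adjusted p 0.0168), lost without 24 h replicate 2 or 3 or 12 h replicate 2 or 3 (adjusted p 0.0894 to 0.179) and without probe sets marked for cross-hybridisation (adjusted p 0.624).

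Omd, Kitl, Lox and Mgp, whose products are secreted, were among the 15 largest falls. Omd, a small proteoglycan of the matrix, was at 4.63, 4.35 and 4.47 at 24 h, against 6.57, 5.91 and 6.01 at 12 h (-1.68 ± 0.42 SE, adjusted p 0.029). Kitl, the ligand of the receptor Kit, was at 5.10, 4.87 and 4.90 at 24 h, against 6.75, 6.42 and 6.06 at 12 h (-1.46 ± 0.39 SE, adjusted p 0.0496). Lox, the enzyme that crosslinks collagen and elastin, was at 10.34, 9.92 and 10.28 at 24 h, against 11.16, 11.19 and 11.15 at 12 h, with almost no spread at 12 h (-0.99 ± 0.25 SE, adjusted p 0.0331). Mgp, a matrix protein that inhibits calcification, was at 12.40, 12.63 and 12.54 at 24 h, against 13.51, 13.41 and 13.25 at 12 h (-0.87 ± 0.21 SE, adjusted p 0.0215). For all 4 genes the 3 arrays of 24 h lay below the 3 of 12 h, and each call was lost without single arrays: Omd (adjusted p 0.0763 to 0.144), Kitl (adjusted p 0.0701 to 0.194) and Lox (adjusted p 0.0701 to 0.207) were lost without any 1 of the 6 arrays, and Mgp without any 24 h array or 12 h replicate 1 or 2 (adjusted p 0.0502 to 0.141). With arrays centred on housekeeping genes, Kitl (adjusted p 0.0665) and Lox (adjusted p 0.0573) were not called. Kitl was also lost with trend and robust moderation (adjusted p 0.0655). Lox was the 1 fallen member of 31 matrix genes, of which 0 rose and the list median was -0.07. The block called 4 of them lower.

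Other genes among the largest falls code for secreted or membrane proteins. Cxcl5, a chemokine for neutrophils, was at 5.06, 4.94 and 4.81 at 24 h, against 6.73, 5.77 and 5.70 at 12 h (-1.13 ± 0.26 SE, adjusted p 0.0116); it was the 1 called member of 17 NF-kB targets and cytokines, and was lost without 24 h replicate 3 or 12 h replicate 1 (adjusted p 0.0667 to 0.163). F3, the tissue factor that starts clotting, fell by 0.97 ± 0.22 SE (adjusted p 0.0105). Masp1, a protease of the complement system, was at 7.83, 7.84 and 7.70 at 24 h, against 8.80, 8.72 and 8.52 at 12 h (-0.88 ± 0.16 SE, adjusted p 8.08e-04), but its probe set is marked for possible cross-hybridisation and another of its probe sets gave 0.21 (adjusted p 0.841). Inhbb, a subunit of activin B, was at 8.20, 8.34 and 8.19 at 24 h, against 9.07, 8.94 and 8.92 at 12 h (-0.74 ± 0.17 SE, adjusted p 0.0166). Epha1, a receptor for ephrins, fell by 1.04 ± 0.20 SE (adjusted p 0.00176), Aqp1, a water channel, by 1.01 ± 0.21 SE (adjusted p 0.00377), Clmp, an adhesion molecule, by 0.99 ± 0.20 SE (adjusted p 0.00269), and Gpr176, an orphan receptor, by 1.05 ± 0.20 SE (adjusted p 0.00213). Of these, Clmp, Gpr176 and Masp1 were kept without any 1 array. F3 was lost without 24 h replicate 1 or 2 or 12 h replicate 1 (adjusted p 0.0559 to 0.121), Inhbb without 24 h replicate 1 or 3 or any 12 h array (adjusted p 0.0514 to 0.0907), Epha1 without 12 h replicate 2 (adjusted p 0.0513), and Aqp1 without 24 h replicate 1 or 12 h replicate 2 (adjusted p 0.054 to 0.0631). Inhbb was also lost with the mean of probe sets (adjusted p 0.0867), and its other probe set gave -0.14.

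Among intracellular proteins, the list of FoxO factors and genes that they induce held calls in both directions. Of 19 measured, 1 rose and 2 fell, and the block called 2 higher and 6 lower. The 2 higher were Trim63 and the gene of the factor Foxo1 itself (0.57, adjusted p 0.00685 with the block). Fbxo32, the ubiquitin ligase atrogin, was at 7.60, 7.36 and 7.77 at 24 h, against 8.03, 8.81 and 9.12 at 12 h (-1.07 ± 0.25 SE, adjusted p 0.0125). Trim63, the other ubiquitin ligase known for muscle atrophy, went the opposite way, at 6.61, 6.36 and 6.18 at 24 h, against 5.27, 4.07 and 4.33 at 12 h (1.83 ± 0.29 SE, adjusted p 1.61e-04). Pdk4, the kinase that holds back pyruvate oxidation, was at 6.51, 6.86 and 6.83 at 24 h, against 7.89, 7.81 and 7.68 at 12 h (-1.06 ± 0.19 SE, adjusted p 0.00104). Further genes outside the lists were Gulp1, an adaptor for engulfment of dying cells, at 7.45, 6.80 and 7.26 at 24 h, against 8.23, 8.38 and 8.47 at 12 h (-1.19 ± 0.30 SE, adjusted p 0.0289), and Arhgap18 (-0.95 ± 0.22 SE, adjusted p 0.013). Fbxo32 was lost without 24 h replicate 1 or 2 or 12 h replicate 2 or 3 (adjusted p 0.0587 to 0.162), Arhgap18 without 24 h replicate 1 or 2 or 12 h replicate 1 or 2 (adjusted p 0.054 to 0.0961), and Gulp1 without any 1 of the 6 arrays (adjusted p 0.0531 to 0.211); Trim63 and Pdk4 were kept without any 1 array.

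In 8 other lists 0 genes were called with limma. These were immediate early genes (0 of 23, with 2 below an unadjusted p of 0.05, both lower), the interferon response (0 of 23, with 1 higher and 1 lower), cholesterol synthesis and uptake (0 of 16, with 5 lower), fatty acid synthesis (0 of 11, with 1 lower), the insulin-like growth factor axis (0 of 11, with 2 lower), ribosome biogenesis (0 of 24, with 4 higher), the circadian clock (0 of 14, with 2 higher) and E2F factors and G1 cyclins (0 of 15, with 2 in each direction). The block called 2 of the insulin-like growth factor axis lower, 2 of ribosome biogenesis higher, 1 clock gene higher, 1 E2F or G1 gene higher and 0 in the other 4. In the fit to the 6 arrays alone and with the block on them each of these lists held 0 to 3 calls per direction.

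The promoters of the called genes were read for short motifs of muscle and stress factors. RefSeq windows (GRCm38.p6) of 250 bases before the start were matched by symbol for 159 of the 199 risen and 33 of the 44 fallen genes, some with several starts, and both strands were searched. CAGCTG, the E-box form that Myod1 and Myog bind, was in 19.5% of 221 windows of risen genes and in 40.5% of 37 windows of risen members of the muscle lists, against 7.9% of 38 windows of fallen genes and 12.8% of all measured genes' windows. The MEF2 box, an AT-rich site of Mef2 factors whose letters vary, was in 7.2% of risen, 13.5% of risen muscle list and 2.6% of fallen windows, against 1.9% of all. The MCAT element CATTCC, which Tead factors bind, was in 10.0% of risen, 16.2% of risen muscle list and 15.8% of fallen windows, against 11.5% of all. TGATGNAA, a site for Atf4 paired with C/EBP factors, was in 4.1% of risen, 2.7% of risen muscle list and 0.0% of fallen windows, against 2.4% of all. TATAAA, which can overlap a MEF2 box, was in 8.1% of risen, 10.8% of risen muscle list and 5.3% of fallen windows, against 8.8% of all. The CArG box, the site of Srf, was in 1.8% of risen, 5.4% of risen muscle list and 0.0% of fallen windows, against 1.2% of all. A match describes the letters and not the binding of a factor, and these shares were given no test. The 37 windows of risen muscle list members belong to 29 genes. No share was taken for muscle list members that were not called. Whether a motif goes with the rise or with being a muscle gene was therefore not tested.

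The 150 bases before the start are shown for 4 risen muscle genes, picked because they hold a CAGCTG, and for the stress genes Fgf21 and Asns, which hold TGATGNAA, all on the strand of the gene. Capitals mark the motifs. Positions count back from the start, whose first base is not printed, and all coordinates are GRCm38.p6.
Myoz2, chr3:123034988-123035137 on the minus strand: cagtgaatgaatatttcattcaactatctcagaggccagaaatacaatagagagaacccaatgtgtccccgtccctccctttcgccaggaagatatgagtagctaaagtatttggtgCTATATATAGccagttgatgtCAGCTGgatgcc
Pgam2, chr11:5803797-5803946 on the minus strand: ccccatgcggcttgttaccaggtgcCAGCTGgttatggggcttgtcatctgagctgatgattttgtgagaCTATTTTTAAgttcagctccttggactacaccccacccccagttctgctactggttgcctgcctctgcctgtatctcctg
Cav3, chr6:112459355-112459504 on the plus strand: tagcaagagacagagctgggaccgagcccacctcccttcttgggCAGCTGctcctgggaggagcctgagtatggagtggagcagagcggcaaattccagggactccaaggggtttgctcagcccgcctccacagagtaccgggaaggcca
Cacna1s, chr1:136052661-136052810 on the plus strand: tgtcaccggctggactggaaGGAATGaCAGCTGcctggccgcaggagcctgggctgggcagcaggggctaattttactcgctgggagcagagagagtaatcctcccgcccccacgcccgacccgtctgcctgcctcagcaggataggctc
Fgf21, chr7:45615491-45615640 on the minus strand: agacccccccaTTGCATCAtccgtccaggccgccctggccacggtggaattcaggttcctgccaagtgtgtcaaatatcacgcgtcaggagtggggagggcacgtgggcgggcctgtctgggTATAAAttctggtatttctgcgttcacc
Asns, chr6:7693210-7693359 on the minus strand: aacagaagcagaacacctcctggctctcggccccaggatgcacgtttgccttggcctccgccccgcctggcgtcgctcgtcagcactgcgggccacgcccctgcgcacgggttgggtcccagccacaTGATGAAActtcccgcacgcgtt
Myoz2 has a MEF2 box from -33 to -24 and CAGCTG from -12 to -7. Pgam2 has CAGCTG from -125 to -120 and a MEF2 box from -80 to -71. Cav3 has CAGCTG from -106 to -101. In Cacna1s CAGCTG stands from -123 to -118, just after an MCAT element that reads on the other strand from -130 to -125. Fgf21 has TGATGNAA on the other strand from -139 to -132 and TATAAA from -28 to -23, and Asns has TGATGNAA from -23 to -16. Herpud1, whose window is not shown, also has TGATGNAA, on the other strand from -112 to -105. Chac1, a called stress gene whose window is also not shown, has no TGATGNAA in these 150 bases and has CAGCTG from -19 to -14.

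The genes of the step followed several courses over the whole series. Myog, Actc1 and Mymk had left their growth-phase level by 0 h: Myog averaged 5.64 ± 0.74 at -24 h and 10.15 ± 1.12 at 0 h (SD, n = 3 at each time). By 12 h its mean was 12.08 ± 0.36, and by 24 h it was 12.65 ± 0.28. Ckm started later, with a mean of 5.50 at 0 h and 6.85 at 6 h, then 7.84 at 12 h and 10.40 at 24 h, and last 11.14 at 48 h. Cav3 rose in the first 12 h (12 h minus 0 h, 1.42 ± 0.26 SE, adjusted p 0.00105) and went on after 24 h, with means of 4.12 at 0 h and 5.54 at 12 h, then 7.93 at 24 h and 10.59 at 96 h. Tead4 was within 3.83 to 4.84 from -24 h to 12 h, then 6.74 at 24 h and 7.37 at 48 h. Cdkn1c had its highest means at 24 h and 48 h (10.12 at both) and stood at 7.89 at 144 h.

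The stress and fallen genes took other paths. Asns averaged 10.38 at -24 h and 9.43 at 0 h, and its 12 h mean of 8.50 was the lowest of the 14 times without cycloheximide. It then came to 10.07 at 24 h and 10.76 at 48 h. Fgf21 lay between 5.03 and 6.53 from 0 h to 12 h and reached 10.06 at 48 h. Mgp had its highest means at 9 h and 12 h (13.39 at both), against 10.45 at -24 h, and came to 12.52 at 24 h and 11.54 at 48 h. Kitl lay between 5.55 and 6.90 up to 12 h and between 4.10 and 4.96 from 24 h on. Fbxo32 was lowest at 48 h (6.68) and stood at 8.20 at 144 h.

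**Figure D4:**
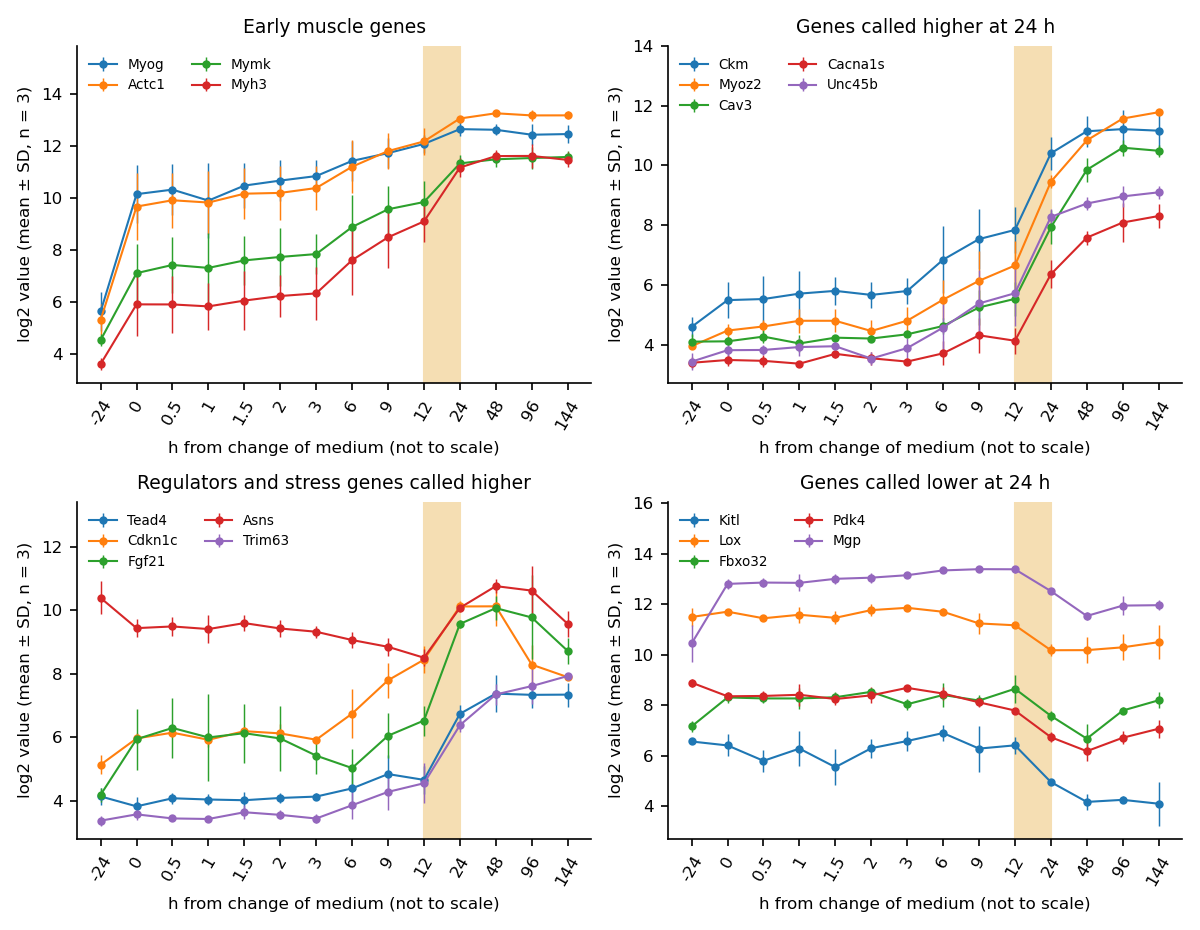
Mean log2 value with SD (n = 3) at each time from -24 h to 144 h for early muscle genes, genes called higher at 24 h, risen regulators and stress genes, and genes called lower; times are evenly spaced and the shaded band marks 12 h to 24 h. Myog and Actc1 make their largest step before 0 h, whereas Ckm, Myoz2, Cav3 and Tead4 make theirs inside the band.

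Most called genes were called in the same direction in longer intervals that contain the step but share no array with it. In 48 h against 9 h, 192 of the 199 risen genes (96.5%) were called higher, against 6.47% of all genes, and they make 16.3% of the 1177 called higher there. Of the 44 fallen genes 42 (95.5%) were called lower, against 8.07% of all, and they make 2.86% of the 1469 called lower. In 144 h against 9 h the counts were 184 (92.5%, with 9.63% of all genes higher) and 40 (90.9%, with 11.1% of all genes lower), which are 10.5% of 1752 and 1.98% of 2024. In both comparisons 0 genes were called in the opposite direction. These plates came from the same passages, and all arrays share 1 estimate of the spread. Since the intervals from 9 h contain the step, a change that lasted had to appear in them. The counts therefore describe how long the changes lasted and do not replicate the step.

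The day in growth medium before induction ran differently for the genes that fell. That day (0 h minus -24 h, no array in common with the step) called 1321 genes higher (7.26%) and 1067 lower (5.86%). Of the 44 fallen genes 24 (54.5%) were higher on that day, 1.82% of its 1321, and 0 were lower; of the 199 risen genes 24 (12.1%, 1.82% of the 1321) were higher and 11 (5.53%, 1.03% of the 1067) were lower. Mgp, for example, was higher by 2.36 on that day (adjusted p 5.44e-10) and fell in the step, and Inhbb was higher by 1.82 (adjusted p 1.90e-09).

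Testing the difference of the 2 changes, the step minus the growth-medium day, called 1574 genes (8.65%), 733 in the positive direction (4.03%) and 841 in the negative (4.62%). Centring the arrays on housekeeping genes moved the median difference of all genes to -0.14, against 0.01 as deposited, and left 23.1% of 1844 calls positive, against 46.6%, so only large differences are named here. The block called 2625 and, without -24 h replicate 1, 923 were called. Ankrd2 (2.67 ± 0.42 SE, adjusted p 2.87e-05), Itgb1bp2 (2.58 ± 0.71 SE, adjusted p 0.015), Asns (2.52 ± 0.39 SE, adjusted p 2.24e-05), Actn2 (2.50 ± 0.51 SE, adjusted p 9.32e-04) and Tead4 (2.39 ± 0.46 SE, adjusted p 4.04e-04) changed more in the step. In the other direction stood Myog (-3.95 ± 0.90 SE, adjusted p 0.00301), which was 4.51 higher on the growth-medium day, Actc1 (-3.48 ± 0.98 SE, adjusted p 0.0181), the lipoprotein lipase gene Lpl (-3.63 ± 0.86 SE, adjusted p 0.00422), the Wnt inhibitor gene Sfrp2 (-3.53 ± 0.75 SE, adjusted p 0.00155) and the selenium transporter gene Selenop (-3.41 ± 0.33 SE, adjusted p 6.47e-09). Without 24 h replicate 1 or 12 h replicate 2 the difference of Itgb1bp2 was lost (adjusted p 0.0545 and 0.0768), as was that of Actc1 without replicate 1 of 12 h, 0 h or -24 h (adjusted p 0.0509, 0.0869 and 0.064).

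**Figure D5:**
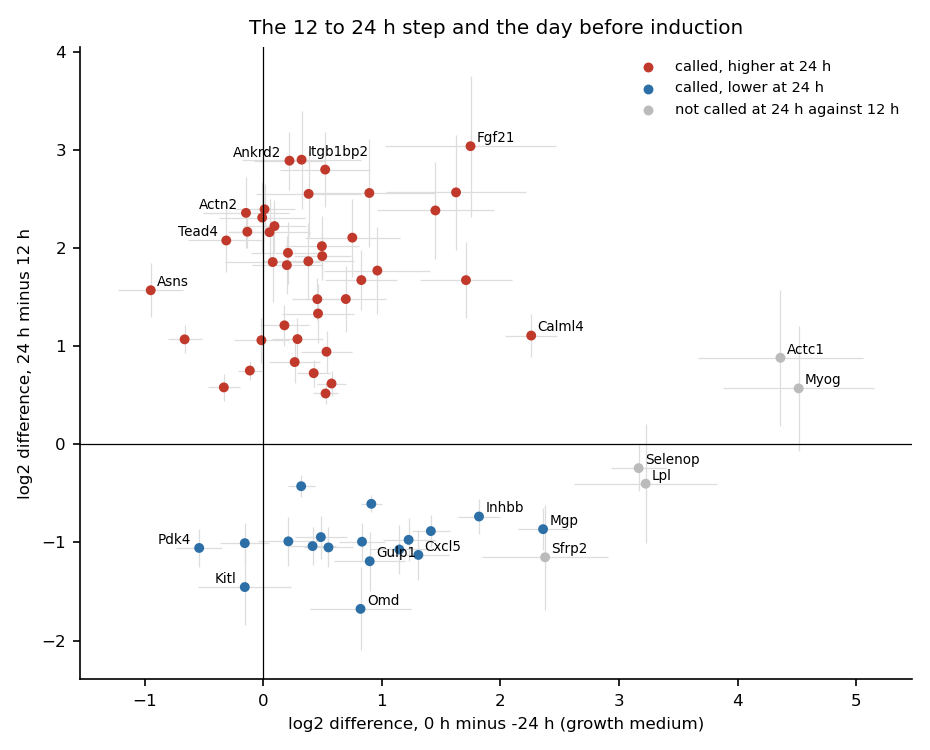
Log2 difference 24 h minus 12 h (vertical) against 0 h minus -24 h in growth medium (horizontal), with SE, for the named genes; red points were called higher at 24 h, blue points lower, and grey points were not called. Most of the named fallen genes lie right of 0, with Mgp at 2.36 and -0.87, and Myog and Actc1 stand far right at 4.51 and 4.36.

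The tests of the step against its neighbours in time called few genes. They are less precise than the test against the growth-medium day, because the shared arrays count double. For Asns the SE was 0.47 against the first 12 h and 0.39 against the growth-medium day. Few calls therefore do not show that the intervals were alike. The first 12 h (12 h minus 0 h) and the step share the 12 h arrays. Their difference called 9 genes (0.0495%), 5 positive (0.0275%) and 4 negative (0.022%), and 50 with the block. Asns was -0.93 over the first 12 h and 1.57 in the step (difference 2.50 ± 0.47 SE, adjusted p 0.0283), and Calml4, a relative of calmodulin, was -0.90 and then 1.11 (2.00 ± 0.38 SE, adjusted p 0.0283). The step was also larger for Adssl1 (1.78 ± 0.37 SE, adjusted p 0.0463), Fn3k (1.46 ± 0.28 SE, adjusted p 0.0341) and Atp1b1, a subunit of the sodium pump (1.16 ± 0.17 SE, adjusted p 0.0015). It was smaller or negative for Dtx4, of the Notch pathway (-2.09 ± 0.43 SE, adjusted p 0.0463), Mfap5, a microfibril protein (-2.01 ± 0.41 SE, adjusted p 0.0463), Inhbb (-1.62 ± 0.30 SE, adjusted p 0.0283) and Cyth3, an exchange factor for Arf proteins (-0.75 ± 0.15 SE, adjusted p 0.0463). Leaving out single arrays left 1 call without 24 h replicate 1, 24 h replicate 3, 12 h replicate 3 or 0 h replicate 2, 2 without 12 h replicate 2 or 0 h replicate 1, and 5 without 24 h replicate 2.

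The following day (48 h minus 24 h) and the step share the 24 h arrays, and their difference called 6 genes (0.033%), 1 positive (0.0055%) and 5 negative (0.0275%), and 50 with the block. Myl2, a regulatory myosin light chain of slow muscle and heart, differed by 0.48 in the step and 2.75 on the following day (-2.28 ± 0.29 SE, adjusted p 3.84e-05), and Tcap, which caps titin at the Z-disc, by 0.28 and 2.44 (-2.16 ± 0.37 SE, adjusted p 0.00492). Tnc, a matrix glycoprotein, had -0.45 and 1.65 (-2.10 ± 0.31 SE, adjusted p 7.31e-04), Hbegf, a ligand of the epidermal growth factor receptor, 0.28 and 2.07 (-1.79 ± 0.35 SE, adjusted p 0.0278), and Padi2, an enzyme that citrullinates proteins, 0.39 and 1.75 (-1.36 ± 0.25 SE, adjusted p 0.0106). Htra3, a secreted protease, had -0.05 in the step and -2.15 on the following day (2.10 ± 0.35 SE, adjusted p 0.00351). Myl2 and Padi2 had low values at both times of the step, with means of 3.49 and 4.09 at 12 h and of 3.97 and 4.47 at 24 h. The medians of the 12 h arrays ran from 4.02 to 4.12. Leaving out 24 h replicate 2 gave 2 calls, 24 h replicate 1 gave 10 and 48 h replicate 2 gave 23. A fit to the arrays of these 3 times alone called 0 genes.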

How the data were processed

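Affymetrix MOE430v2 arrays read total RNA of C2C12 cells, labelled as biotinylated cRNA, in 16 groups of 3 arrays. The authors' deposited values are on a log2 scale from RMA, per the submitters' processing notes; its version, and whether all arrays were processed in 1 run, are not given in the sources used here. The values were used as deposited. Means over an array ran from 5.24 to 5.26 for the 6 arrays with cycloheximide and from 5.02 to 5.05 for the 42 without. The reason for this offset was not tested. A fit without the cycloheximide arrays called 252 genes in the step, with 226 of the 243 among them. Of 45101 probe sets, the 34945 listed with exactly 1 gene symbol covered 18193 genes, and the probe set of highest mean over the 48 arrays stood for each gene. Several genes are listed for 932 probe sets and no gene for 9211.

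Group means were estimated over all 48 arrays with limma 3.58.1 in R 4.3.3 (32 residual degrees of freedom, default eBayes, two-sided), and Benjamini-Hochberg adjustment ran over the 18193 genes. A gene was called at an adjusted p under 0.05. On simulated data the fit recovered 94 of 100 genes changed 2-fold and 100 of 100 changed 4-fold, with 8 false calls. These shares do not carry over to genes with a wide spread between arrays. Myh3, for example, differed by 2.07 and Igf2 by 1.24 without being called, so a gene not called is not shown to be unchanged. Replicates came from successive passages per the series' design text; same-numbered arrays of the 2 times correlated in their deviations at 0.272 to 0.292. With 3 arrays a group, their number limits the precision.

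Named genes were the 15 largest rises and 15 largest falls among called genes without overlap between times, up to 4 called members of each of 36 lists per direction, the up to 5 largest per direction in each difference of steps, and a fixed set of regulators. Genes without a standard symbol were counted and not named. The members and lists were chosen with earlier results of these data known. Alternatives changed the samples, the replicate block, the moderation, the scaling, the choice of probe set, a filter on low values and single arrays. Promoter windows are from RefSeq on GRCm38.p6.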

Additional observations from a re-analysis of the deposited data

Results flagged for a closer look

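The genes below were looked at again because a test of the difference itself found that their change between 12 h and 24 h was unlike their change in another interval. Each value is the log2 difference of the step minus that of the other interval, from limma.

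Against the day in growth medium (0 h minus -24 h), the value was 2.67 for Ankrd2, 2.58 for Itgb1bp2, 2.52 for Asns, 2.50 for Actn2 and 2.39 for Tead4. It was -3.95 for Myog, -3.63 for Lpl, -3.53 for Sfrp2, -3.48 for Actc1 and -3.41 for Selenop. The replicate block called Sfrp2 lower in the step itself (adjusted p 0.0172), where it was at 7.74, 6.79 and 6.10 at 24 h, against 8.82, 7.71 and 7.56 at 12 h.

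Against the first 12 h (12 h minus 0 h), the value was 2.50 for Asns, 2.00 for Calml4, 1.78 for Adssl1, 1.46 for Fn3k and 1.16 for Atp1b1. It was -2.09 for Dtx4, -2.01 for Mfap5, -1.62 for Inhbb and -0.75 for Cyth3. Of these 9, the difference of Atp1b1 was kept without any 1 array, but was lost without probe sets marked for cross-hybridisation (adjusted p 0.843). The other 8 were each lost without at least 1 array.

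Against the following day (48 h minus 24 h), the value was 2.10 for Htra3, -2.28 for Myl2, -2.16 for Tcap, -2.10 for Tnc, -1.79 for Hbegf and -1.36 for Padi2. Without 24 h replicate 2 the adjusted p was 0.0818 for Htra3, 0.112 for Tcap, 0.476 for Hbegf and 0.26 for Padi2, while the differences of Myl2 and Tnc were kept without any 1 array. What sets these genes apart was not tested.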

How the results depend on the processing

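The 243 calls of 24 h against 12 h became 657 with the replicate block, 435 in a fit to the 6 arrays alone and 879 with the replicate block on these 6 arrays, a setting chosen after seeing the data; leaving out single arrays gave 94 to 239. The other 7 settings gave 225 to 287. The difference from the growth-medium day went from 1574 calls to 2625 with the replicate block, and to 923 to 1605 without single arrays. The difference from the following day went from 6 calls to 50 with the replicate block, 10 with trend and robust moderation, 10 after quantile normalization, 11 with the filter on low values, 0 in a fit to the arrays compared, and 2 to 23 without single arrays. That from the first 12 h went from 9 calls to 50 with the replicate block, 4 without cycloheximide arrays, 3 with the mean of probe sets, 4 without cross-hybridising probe sets, 1 in a fit to the arrays compared, and 1 to 9 without single arrays. The cause of these shifts was not tested. Of the 59 named called genes 25 were called in every setting compared, which left out the replicate block on 6 arrays, and 31 were lost without at least 1 array. Masp1 alone changed direction, to 0.21 (adjusted p 0.841), without cross-hybridising probe sets. Of the 29 named genes not called, 4 were called with the block. Dim probe sets limit small differences.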
